A study of Homo sapiens with 6 samples.

Results

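The genes described here encode the proteins of the mitochondrial ribosome, and their RNA was followed in U87-2M1 cells, a glioma line, given either a decoy for miR-10b or a control decoy. Members were the genes whose single platform symbol begins with MRPL or MRPS and a digit, and for each gene the probe set with the highest mean over all 6 arrays was used. There were 77 such genes among 19775 genes with a symbol of their own, 50 MRPL genes and 27 MRPS genes. Of the 77, 76 passed the filter on dim genes. The pseudogene MRPL45P2 did not pass, its control arrays averaging 3.09 ± 3.12 and its decoy arrays 5.7 ± 1.99 (SD, n = 3). One further MRPL entry, MRPL20-AS1, is an antisense transcript beside MRPL20 and not a ribosomal protein gene.

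U87-2M1 is an invasive subline of the human glioma line U87, obtained through a lung metastasis assay and then kept in culture. All cells were at passage 4, were kept in hypoxia and were transduced with a baculoviral vector, so the arrays of both groups share the vector and the oxygen level. The control group (3 arrays) carried the control decoy and the other group (3 arrays) the miR-10b decoy, a transcript meant to bind the microRNA miR-10b. The labels do not say whether the 3 replicates were separate cultures, and the spread that p-values rest on here is that between these samples and may be technical.

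Mitochondria keep a small genome of their own, and its messenger RNAs, which encode core subunits of the respiratory chain, are translated inside the organelle. The mitochondrial ribosome that does so has a large and a small subunit. Its RNAs come from the mitochondrial genome, while all of its proteins are encoded in the nucleus, made in the cytosol and imported. Some of these proteins descend from bacterial ribosomal proteins and others are found only in mitochondrial ribosomes. The symbol gives the subunit, MRPL for the large and MRPS for the small one, with exceptions: structures of the mammalian mitoribosome place MRPS30 and MRPS18A in the large subunit.

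Values below are signals after quantile normalization, which gives every array the same distribution of signals. Log2 differences are miR-10b decoy minus control, on the scale log2(signal + 7), and a gene is called higher or lower at an adjusted p under 0.05 in limma's test over 13842 genes. In the deposited values 1 array was brighter, with a trimmed mean of 192 on control replicate 3 against 154 to 162 on the other 5 arrays. All 6 markers of cultured glioma cells, such as vimentin and CD44, lay between 361 and 11713 in deposited group means. Leukocyte markers lay between 2.05 and 25, oligodendrocyte markers between 11.5 and 45.6, astrocyte markers between 2.05 and 64.3 and endothelial markers between 1.09 and 148. The ratio of 3' to 5' actin signals, which climbs as RNA degrades, averaged 5.73 ± 0.474 over control arrays and 8.54 ± 1.77 over decoy arrays (SD, n = 3; two-sided exact permutation test, p = 0.1, the smallest this design allows). The same ratio for GAPDH was 0.945 ± 0.0192 and 0.943 ± 0.00747 (SD, n = 3; exact permutation test, p = 0.9).

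Genes of the mitochondrial ribosome were more often higher than lower with the miR-10b decoy. Of 76 tested members 27 were higher, 5 were lower and 44 did not pass, against a background of 16.6% of all tested genes higher and 17.3% lower. The members called higher made up 35.5% of the 76 and those called lower 6.58%. The median log2 difference was 0.1 over the members and -0.02 over all genes. Differences were small, from -0.32 to 0.78 on the log2 scale, and 54 of the 76 were above 0.

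**Figure D1:**
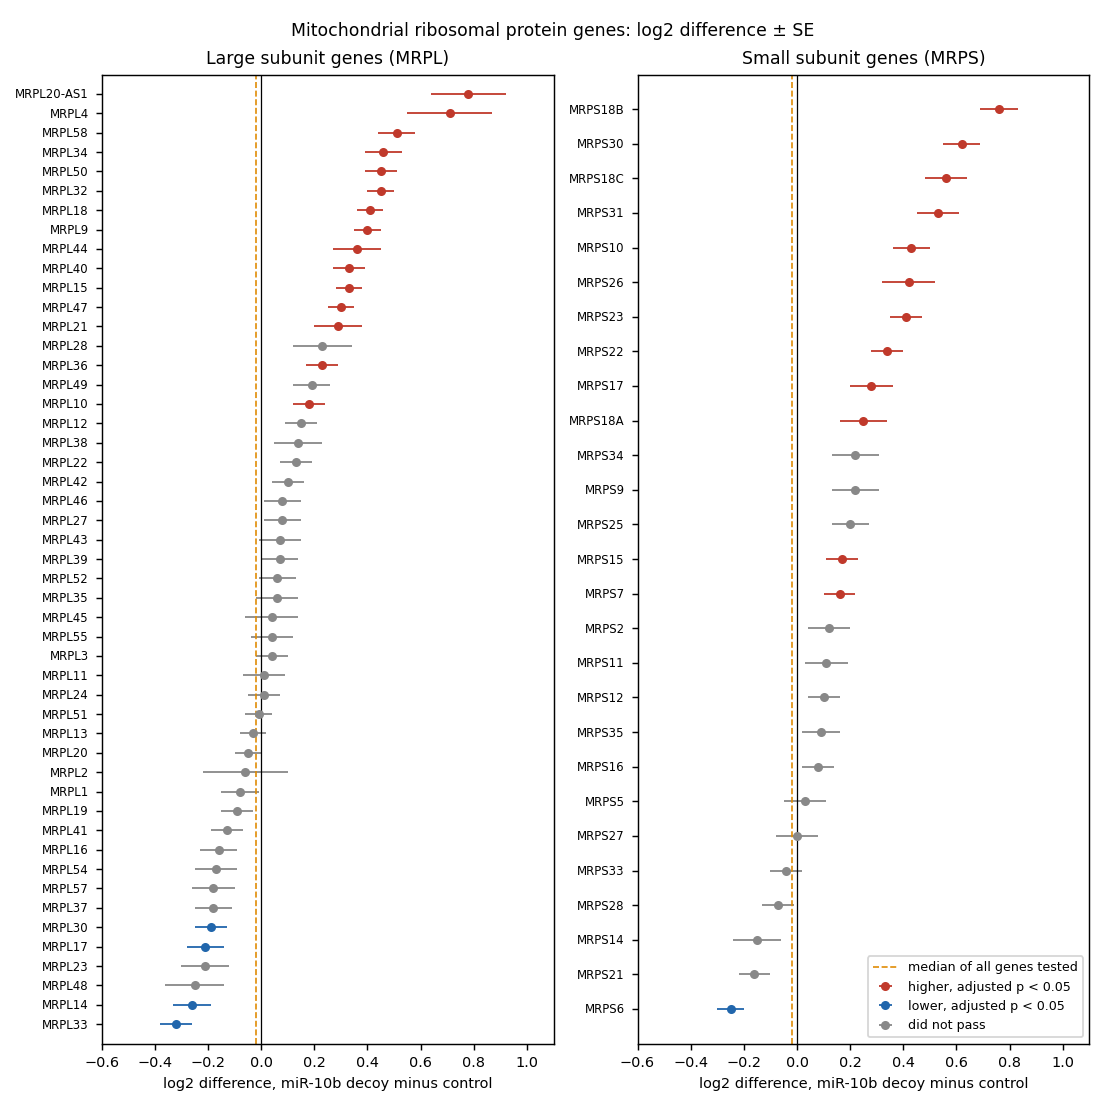
Log2 difference (miR-10b decoy minus control, horizontal axis) with its SE for each of the 76 tested genes, MRPL on the left and MRPS on the right, 3 arrays per group. Red points are higher and blue points lower at an adjusted p under 0.05, grey points did not pass, and the dashed line is the median of all genes tested (-0.02); 12 of 27 MRPS genes and 15 of 49 MRPL genes are red.

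The arrays of the groups did not overlap for 36 members with the decoy arrays on top and for 11 with the decoy arrays below. Over all genes tested, 22.3% were separated upward and 24.1% downward. Every member's 6 arrays lay above the filter level of 15.6. The share of upward calls moved with the scaling. In the deposited signals, where the median of all genes was -0.14, 11 members were higher and 3 lower against 7.9% and 18.5% of all genes. With arrays centred on their medians, 34 were higher and 2 lower against 20.7% and 12.6%. The deposited signals without control replicate 3, an alternative added after the data were seen, gave 25 higher and 3 lower against 13.7% and 15.1%. Leaving control replicate 3 out of the quantile-normalised values gave 28 and 3 against 15.5% and 14.5%. Without moderation of the gene variances 20 members were higher and 2 lower against 10.5% and 9.95%. The members' median lay above that of all genes by 0.12 here, by 0.16 in the deposited signals and by 0.16 after centring.

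The small subunit list stood further up than the large. Among 27 MRPS genes 12 were higher and 1 was lower, with a median log2 difference of 0.17. Among 49 MRPL entries 15 were higher and 4 lower, with a median of 0.07. Set against the mean of the controls, the mean log2 value of the 27 MRPS genes was -0.024, -0.023 and 0.046 on control replicates 1 to 3 and 0.228, 0.195 and 0.18 on decoy replicates 1 to 3. For the 48 protein-coding MRPL genes the same means were -0.022, -0.005 and 0.027, then 0.133, 0.074 and 0.061. The decoy arrays therefore lay above the control arrays for each subunit, and each decoy array was further up for MRPS than for MRPL, by 0.095, 0.121 and 0.119. No test was made of this difference, which is a description over lists chosen with earlier results known.

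**Figure D2:**
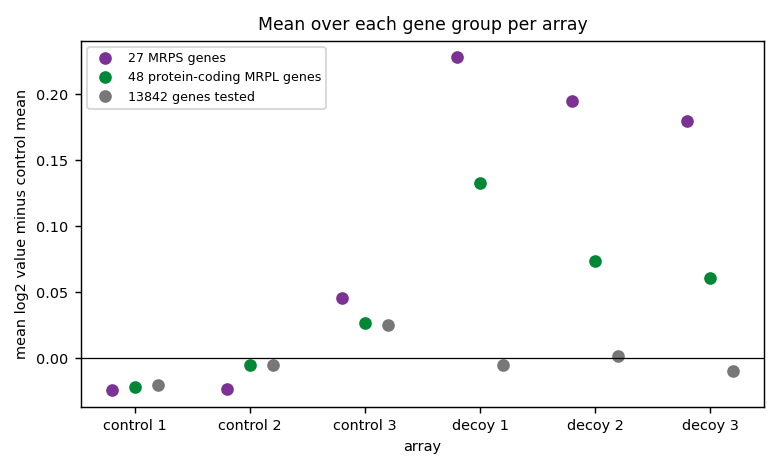
Mean log2 value of 27 MRPS genes, 48 protein-coding MRPL genes and all 13842 tested genes on each of the 6 arrays, minus the mean of that group over the 3 control arrays (vertical axis, log2 units). MRPS means are 0.18 to 0.228 on the decoy arrays, MRPL means 0.061 to 0.133, and the mean of all genes stays between -0.02 and 0.025 on all 6 arrays.

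The order of the subunits was the same in each scaling, with the MRPL median below the MRPS median by 0.11 here and by 0.09 both in the deposited signals and after centring. The MRPL median itself was -0.02 in the deposited signals, so its sign turned there, while it stayed 0.12 above the median of all genes. With MRPS30 and MRPS18A counted in the large subunit and MRPL20-AS1 left out, 16 of 50 large subunit genes and 10 of 25 small subunit genes were higher, with medians of 0.07 and 0.16. These counts leave out subunit proteins with other symbols, such as CHCHD1 and DAP3 of the small subunit. The gap between the MRPL and MRPS medians was smaller with the mean of all probe sets (0.05). It was also smaller without probe sets whose ID marks possible cross-hybridisation (0.02 over 26 MRPL and 16 MRPS genes). Decoy replicate 1, with the highest actin 3'/5' ratio (10.6, against 7.36 and 7.68), also had the highest mean for each subunit. Without it 22 members were higher and 6 lower, against 14.3% and 15.5% of all genes in that run. The part of RNA integrity in these differences was not tested.

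**Figure D3:**
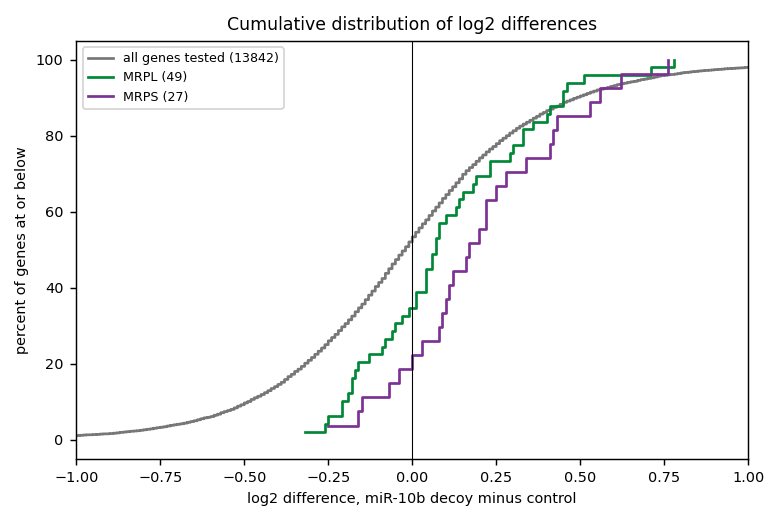
Cumulative share of genes (vertical axis, percent) at or below each log2 difference between miR-10b decoy and control (horizontal axis, shown from -1 to 1) for all 13842 genes, 49 MRPL entries and 27 MRPS genes. Over most of the range the MRPS curve lies furthest right, with a median of 0.17, the MRPL curve has a median of 0.07 and all genes one of -0.02.

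Members were also sorted by descent from the bacterial ribosome, and the shares called higher were close. Of 30 members found only in mitochondrial ribosomes 11 (36.7%) were higher and 0 lower. Of 45 with a bacterial counterpart 15 (33.3%) were higher and 5 (11.1%) lower. Over all tested genes 16.6% were higher and 17.3% lower. Among genes with an MRPS symbol, 7 of 12 mitochondria-specific ones were higher, with a median of 0.29. Of those with a bacterial counterpart 5 of 15 were, with a median of 0.11. The 12 include MRPS30 and MRPS18A, both called higher, which structures place in the large subunit. Among genes with an MRPL symbol, 4 of 18 mitochondria-specific ones were higher and 0 lower, with a median of 0.07. With a counterpart, 10 of 30 were higher and 4 lower, with a median of 0.05. These are counts without a test. Of the 30 mitochondria-specific genes, 18 had an unadjusted limma p under 0.05 in either direction, 60% against 57.8% of those with a bacterial counterpart and 43.4% of all genes. MRPS18A and MRPS18B, extra relatives of S18 that bacteria lack, were counted as mitochondria-specific, and MRPS18C as the bacterial counterpart.

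The stretches before the start sites of 5 members that differed are shown because they were among those with the clearest differences, 4 upward (MRPS18B, MRPS30, MRPS18C and MRPL32) and 1 downward (MRPL33). Each line gives the 250 bases before the RefSeq start site on the gene's own strand (GRCh38.p14), and capitals mark matches to the NRF1, ETS, YY1, CCAAT and E-box motifs named below, on either strand; the stretch of MRPS18B holds none.
MRPS18B, chr6:30617590-30617839: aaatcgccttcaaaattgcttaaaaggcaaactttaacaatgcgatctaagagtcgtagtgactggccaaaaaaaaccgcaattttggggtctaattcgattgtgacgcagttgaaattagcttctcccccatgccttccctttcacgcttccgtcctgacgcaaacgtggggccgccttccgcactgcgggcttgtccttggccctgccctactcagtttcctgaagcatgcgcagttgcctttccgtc
MRPS30, chr5:44808697-44808946: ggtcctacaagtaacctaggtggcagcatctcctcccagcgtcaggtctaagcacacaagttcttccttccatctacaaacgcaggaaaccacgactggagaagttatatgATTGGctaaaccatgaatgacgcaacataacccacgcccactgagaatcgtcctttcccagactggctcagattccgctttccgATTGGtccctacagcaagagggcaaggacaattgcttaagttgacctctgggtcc
MRPS18C, chr4:83455808-83456057: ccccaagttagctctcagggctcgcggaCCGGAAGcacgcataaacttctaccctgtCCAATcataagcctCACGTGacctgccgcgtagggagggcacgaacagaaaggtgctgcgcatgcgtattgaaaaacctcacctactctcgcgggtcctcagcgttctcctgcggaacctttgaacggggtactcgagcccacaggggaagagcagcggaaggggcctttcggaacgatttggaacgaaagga
MRPL32, chr7:42932126-42932375: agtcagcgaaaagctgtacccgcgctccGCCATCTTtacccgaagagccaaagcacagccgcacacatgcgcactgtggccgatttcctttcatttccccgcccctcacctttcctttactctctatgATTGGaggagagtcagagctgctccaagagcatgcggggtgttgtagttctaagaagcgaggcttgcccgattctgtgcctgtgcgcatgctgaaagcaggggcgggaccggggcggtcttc
MRPL33, chr2:27771469-27771718: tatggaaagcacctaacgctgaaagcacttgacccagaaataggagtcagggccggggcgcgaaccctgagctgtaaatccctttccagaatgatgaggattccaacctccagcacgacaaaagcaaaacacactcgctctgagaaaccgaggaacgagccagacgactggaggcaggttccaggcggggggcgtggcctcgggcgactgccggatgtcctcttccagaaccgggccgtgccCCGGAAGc

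The motifs are those of factors known to act at promoters of nuclear genes for mitochondria (NRF1, ETS factors such as GABPA, and YY1) and 3 general ones (the CCAAT box, the E-box bound by MYC and the SP1 site). They were searched on both strands from 250 bases before to 50 after the start, in the 67 protein-coding members with an entry in the RefSeq promoter table and in 10374 tested protein-coding genes. The ETS letters CCGGAAG were present in 28 of the 67 (41.8%) against 18.3% of the 10374. The YY1 letters AAGATGGC, which can share AAG with an ETS match, were present in 19 (28.4%) against 5.16%. The NRF1 letters, GCGCA and GCGC with any 1 base between them, were in 8 (11.9% against 11.2%), the E-box CACGTG in 6 (8.96% against 10%) CCAAT in 20 (29.9% against 36.6%) and the SP1 letters GGGCGGG in 33 (49.3% against 52.4%). Over all 27305 entries of the table the shares were 10.7% for ETS, 3.03% for YY1, 6.28% for NRF1, 7.43% for the E-box, 35.7% for CCAAT and 32.9% for SP1.

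Matches differed little by direction for ETS, with 10 of 23 members called higher, 2 of 5 called lower and 16 of 39 that did not pass. YY1 letters were in 9 of 23 called higher, 0 of 5 called lower and 10 of 39 that did not pass, and CCAAT in 11, 0 and 9 of the same groups. NRF1 letters were in 1 of 23, 3 of 5 and 4 of 39. The YY1 matches of MRPS18B and MRPS30 lie past the start site and are not in the printed stretch, while that of MRPL32 is printed on the opposite strand. A match of letters is a description and not a bound site.

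In the small subunit the highest difference was that of MRPS18B, 1 of 3 human proteins related to bacterial protein S18. Its signals were 517, 487 and 521 in controls and 890, 870 and 845 with the decoy. The groups lay far apart, with 508 ± 18.7 against 868 ± 22.3 (SD, n = 3), a log2 difference of 0.76 (1.7-fold, SE 0.07, adjusted p = 7.1e-06). A second MRPS18B probe set was higher too, at 0.49; calls of further probe sets come from the same test adjusted over all probe sets. MRPS18C, the S18 relative that takes the bacterial protein's place in the small subunit, had 945, 949 and 1077 in controls and 1540, 1546 and 1323 with the decoy. Its groups did not overlap, with a log2 difference of 0.56 (SE 0.08, adjusted p = 2e-04).

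MRPS18A, the S18 relative found in the large subunit, rose less, from 547 ± 58 to 650 ± 28.5 (SD, n = 3), a difference of 0.25 (SE 0.09, adjusted p = 0.041). The 3 S18 relatives were thus all higher. The call of MRPS18A rested on the settings, and ended in the deposited signals (adjusted p = 0.351) and when control replicate 2 was left out (adjusted p = 0.184), or any 1 of the decoy replicates (adjusted p from 0.055 to 0.103). A second MRPS18A probe set was higher at 0.51. Among the runs that tested MRPS18C, its call ended only when all its probe sets were averaged (adjusted p = 0.243). Its other 2 probe sets lay near background at 11.7 to 12.4.

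MRPS30, which sits in the large subunit despite its symbol, had signals of 665, 650 and 697 in controls and 978, 1041 and 1088 with the decoy. The lowest decoy array lay well above the highest control array, and the log2 difference was 0.62 (SE 0.07, adjusted p = 3.5e-05). Its other probe sets gave 0.65, which passed, and 0.34, which did not. MRPS31, a mitochondria-specific protein of the small subunit, had 528, 469 and 554 against 790, 753 and 697. Again the groups did not overlap (0.53, SE 0.08, adjusted p = 0.00046), and a second probe set passed at 0.33. Averaging in 1 more probe set, a dim one, turned the MRPS31 value to -0.13 (adjusted p = 0.289).

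**Figure D4:**
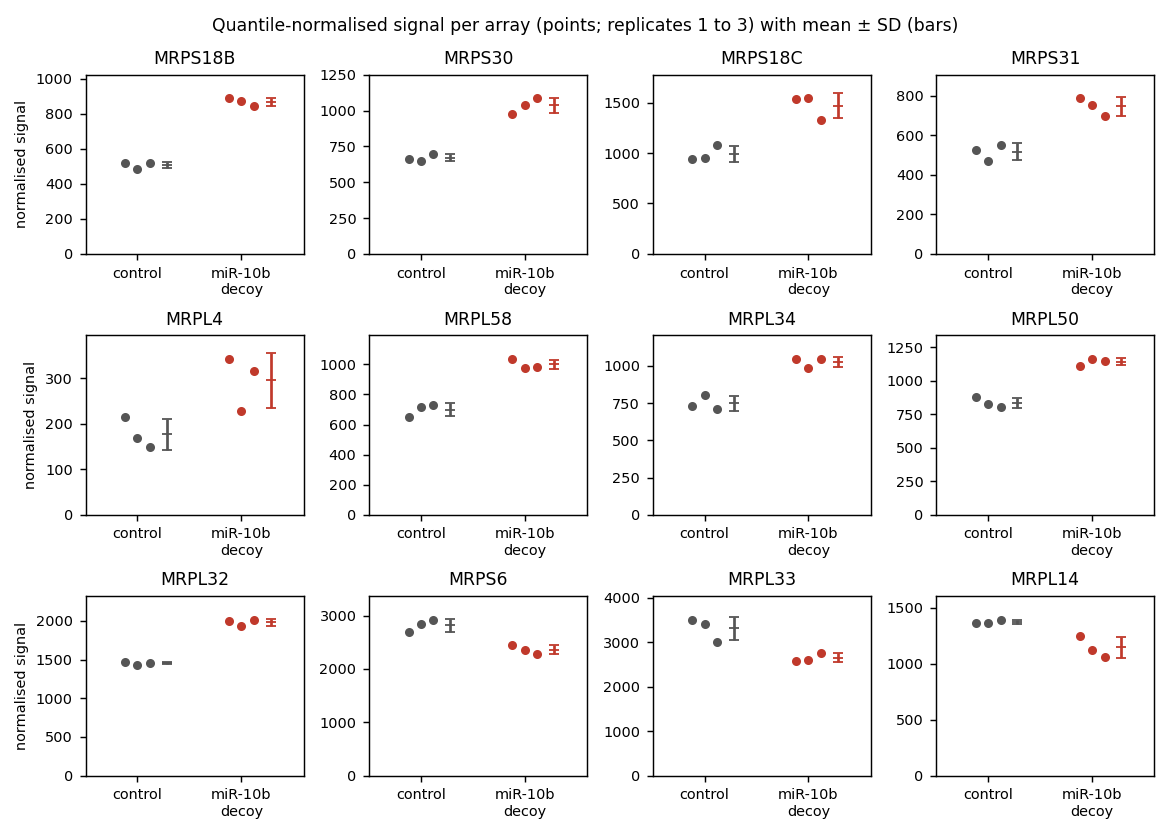
Quantile-normalised signal (vertical axis, linear, from 0) of 12 members on each of the 3 control arrays (grey) and 3 miR-10b decoy arrays (red), with mean ± SD beside the points. In all 12 panels the groups are apart, upward for 9 genes (MRPS18B from 508 ± 18.7 to 868 ± 22.3) and downward for MRPS6, MRPL33 and MRPL14; the MRPL4 decoy arrays run from 228 to 343.

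MRPS10, a counterpart of bacterial S10, rose from 579 ± 23.5 to 784 ± 29.2 (SD, n = 3), a log2 difference of 0.43 (SE 0.07, adjusted p = 0.00047), and a second probe set passed at 0.28. MRPS26, a mitochondria-specific protein, rose from 214 ± 26.7 to 287 ± 14.5 (SD, n = 3; 0.42, SE 0.1, adjusted p = 0.008). Its call ended in the deposited signals (adjusted p = 0.071), with probe sets averaged (adjusted p = 0.319) and without moderation (adjusted p = 0.067). Among members named after their values were seen, MRPS22 had all 4 of its probe sets higher, at 0.34, 0.33, 0.21 and 0.36. Each of the 4 carries a suffix that marks possible cross-hybridisation, so MRPS22 was not tested without suffixed probe sets. The 2 MRPS23 probe sets were higher as well, at 0.41 and 0.5. In the deposited signals the calls of MRPS22 and MRPS23 ended (adjusted p = 0.159 and 0.065). MRPS17 (0.28) and MRPS7 (0.16) were also higher, and their calls too ended in the deposited signals (adjusted p = 0.33 and 0.728). Both calls also ended when single arrays were left out, for MRPS17 without control replicate 1 or 2 or decoy replicate 1 (adjusted p from 0.054 to 0.074). That of MRPS7 ended in 9 of 17 alternatives.

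MRPS6, a counterpart of bacterial S6, was the 1 gene with an MRPS symbol that was called lower. Its signals were 2684, 2842 and 2922 in controls and 2452, 2347 and 2280 with the decoy, so that all decoy arrays lay below all controls (-0.25, SE 0.05, adjusted p = 0.003). The calls of MRPS6, MRPS18B, MRPS30 and MRPS10 held in every alternative run that tested them. MRPS10 was not tested without suffixed probe sets. MRPS15, a counterpart of bacterial S15, had 3200 ± 275 and 3603 ± 149 (SD, n = 3), and its groups overlapped. Its call (0.17, SE 0.06, adjusted p = 0.046) ended in 13 of 17 alternatives, among them the deposited signals (adjusted p = 0.922) and each left-out array but control replicate 3 (adjusted p from 0.051 to 0.158).

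In the large subunit, the 6 largest rises included MRPL20-AS1, the antisense transcript. It had 146, 97.7 and 113 in controls and 182, 215 and 224 with the decoy (0.78, SE 0.14, adjusted p = 0.002), a call that ended without moderation (adjusted p = 0.058). MRPL20 itself did not pass, at 2975 ± 114 and 2865 ± 30.4 (SD, n = 3; -0.05, adjusted p = 0.412). The antisense entry and its neighbour thus differed in their calls. Whether the probes keep the strands apart was not checked here.

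MRPL4, a counterpart of bacterial L4, had 214, 168 and 149 in controls and 343, 228 and 316 with the decoy. The lowest decoy array lay just above the highest control array. Its difference of 0.71 (SE 0.16, adjusted p = 0.005) was not shared by all of its probe sets, of which another was higher at 0.42 and the last had -0.35. Without probe sets that carry the cross-hybridisation suffix only the last remained, and averaging the probe sets (adjusted p = 0.072) or leaving out moderation (adjusted p = 0.108) ended the call too.

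MRPL58, also known as ICT1, is a peptidyl-tRNA hydrolase that became part of the large subunit and can release stalled chains. Its signals were 650, 718 and 729 in controls and 1037, 979 and 984 with the decoy (0.51, SE 0.07, adjusted p = 0.00015). The groups were clearly apart, and the same held for 3 further proteins. MRPL34, a counterpart of bacterial L34, rose from 748 ± 49.6 to 1027 ± 33.3 (SD, n = 3; 0.46, SE 0.07). MRPL50, a mitochondria-specific protein, rose from 836 ± 37.1 to 1142 ± 26.4 (SD, n = 3; 0.45, SE 0.06), with a second probe set higher at 0.51. MRPL32, which is matured by the m-AAA protease of the inner membrane before it joins the ribosome, rose from 1454 ± 16.9 to 1983 ± 42.8 (SD, n = 3; 0.45, SE 0.05, adjusted p = 4.9e-05). The calls of MRPL58, MRPL34, MRPL50 and MRPL32 held in every alternative run that tested them. MRPL34 and MRPL32 were not tested without suffixed probe sets. The other 9 higher MRPL genes, named after their values were seen, were MRPL18 (0.41), MRPL9 (0.4), MRPL44 (0.36), MRPL40 (0.33), MRPL15 (0.33), MRPL47 (0.3), MRPL21 (0.29), MRPL36 (0.23) and MRPL10 (0.18). None of the 9 passed in the deposited signals, with adjusted p from 0.085 to 0.745.

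The 4 lower large subunit genes were all counterparts of bacterial proteins. MRPL33 had 3505, 3416 and 3009 in controls and 2585, 2607 and 2760 with the decoy, with no overlap (-0.32, SE 0.06, adjusted p = 0.002, and adjusted p = 0.057 without moderation). MRPL14, at the face toward the small subunit, changed from 1373 ± 18.3 to 1146 ± 97.6 (SD, n = 3; -0.26, SE 0.07, adjusted p = 0.01). This call was lost after centring (adjusted p = 0.053), with no trend of variance on signal (adjusted p = 0.06) and without moderation (adjusted p = 0.075).

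MRPL17 and MRPL30 were lower by little. MRPL17 had -0.21 (SE 0.07, adjusted p = 0.028), a call that ended in the deposited signals (adjusted p = 0.052), after centring (adjusted p = 0.109) and when control replicate 1 or 3 or decoy replicate 1 or 3 was left out (adjusted p from 0.052 to 0.099). MRPL30 had -0.19 (SE 0.06, adjusted p = 0.034), but 3 of its other 4 probe sets were above 0 and its call ended without any 1 of the 6 arrays (adjusted p from 0.055 to 0.102). Counts of lower members were therefore sensitive to single arrays: 3 instead of 5 were lower without control replicate 3 or decoy replicate 3. Over all genes 14.5% and 14.8% were lower in those runs, against 17.3% with all 6 arrays.

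MRPL12 forms the stalk of the large subunit and has been reported to bind the mitochondrial RNA polymerase. It had 704 ± 22.9 and 784 ± 8.83 (SD, n = 3), a difference of 0.15 that did not pass (adjusted p = 0.077) although the groups did not overlap. It passed after centring (adjusted p = 0.017) and without moderation (adjusted p = 0.036). MRPL51, a mitochondria-specific protein, had 2958 ± 139 and 2932 ± 12.5 (SD, n = 3; -0.01, SE 0.05, adjusted p = 0.881). Its groups overlapped, and its decoy arrays lay within the range of its control arrays.

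More than 1 probe set above the filter level was present for 29 members. In 17 of them all probe sets differed in 1 direction, and in 0 were probe sets called in opposite directions. In 9 members at least 2 probe sets were called the same way. Of the 76 representative probe sets, 47 carried a suffix that marks possible matches to other transcripts, 18 of them among the 32 called members.

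Of 5 mitoribosomal proteins whose symbols follow another pattern, 4 were tested, with 0 higher and 1 lower, against 16.6% and 17.3% of all tested genes. Of the 4, 2 had an unadjusted limma p under 0.05, which 43.4% of all genes had. CHCHD1, a small subunit protein, fell from 2029 ± 40.6 to 1636 ± 172 (SD, n = 3; -0.31, SE 0.07, adjusted p = 0.005, and adjusted p = 0.085 without moderation). DAP3, a GTP-binding protein of the small subunit, had -0.14 (adjusted p = 0.069), and the RNA-binding PTCD3 had 0.08 (adjusted p = 0.539). DAP3 passed without decoy replicate 3 (adjusted p = 0.034). Dimmer PTCD3 probe sets were higher, at 0.47 and 0.55, and PTCD3 passed with its probe sets averaged (adjusted p = 0.017).

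Of 26 tested factors that assemble the mitoribosome 10 (38.5%) were higher and 0 lower, against 16.6% and 17.3% of all tested genes. Their median was 0.13. In either direction, 11 (42.3%) had an unadjusted limma p under 0.05, near the 43.4% of all genes. YBEY, an endoribonuclease needed for the small subunit, rose from 380 ± 39.5 to 558 ± 28.6 (SD, n = 3; 0.55, SE 0.09, adjusted p = 0.00062), though its other probe sets had -0.14 and 0.07. MRM3, which methylates the large ribosomal RNA, had 0.55 (SE 0.1, adjusted p = 0.001), and C1QBP, a matrix protein, had 0.3 (SE 0.05, adjusted p = 0.00068). The YBEY call ended with probe sets averaged (adjusted p = 0.319) and that of C1QBP in the deposited signals (adjusted p = 0.463).

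Among 15 tested translation factors and messenger RNA-binding proteins 4 (26.7%) were higher and 0 lower, against 16.6% and 17.3% of all tested genes. In either direction, 5 (33.3%) had an unadjusted limma p under 0.05 against 43.4% of all genes. SLIRP, which stabilises mitochondrial messenger RNAs together with LRPPRC, rose from 4124 ± 111 to 5105 ± 212 (SD, n = 3; 0.31, SE 0.04, adjusted p = 3e-04). The initiation factor MTIF2 had 0.25 (SE 0.06, adjusted p = 0.009) and the elongation factor GFM1 0.28 (SE 0.08, adjusted p = 0.018), while another GFM1 probe set had -0.19. All of these calls ended in the deposited signals (adjusted p = 0.482, 0.447 and 0.255), and that of GFM1 also without control replicate 1 or 3 or decoy replicate 3 (adjusted p from 0.052 to 0.062). Of the assembly, translation and other ribosomal genes together, 14 of 45 were higher and 1 lower here, against 16.6% and 17.3% of all genes. In the deposited signals they numbered 2 and 1, against 7.9% and 18.5%, and after centring 16 and 1, against 20.7% and 12.6%. Without decoy replicate 2 or 3 the higher ones numbered 9, where 13.5% and 13.8% of all genes were higher. Without decoy replicate 1 or 3 the lower ones numbered 2, where 15.5% and 14.8% of all genes were lower.

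Of 9 tested genes that copy and transcribe the mitochondrial genome 3 were higher and 1 lower, against 16.6% and 17.3% of all tested genes. An unadjusted limma p under 0.05 was found for 5 of them (55.6%), against 43.4% of all genes. POLRMT, the mitochondrial RNA polymerase, rose from 343 ± 30 to 582 ± 59.8 (SD, n = 3; 0.75, SE 0.1, adjusted p = 0.00012), but its other probe sets, both dim, had 0.03 and -0.89, and averaging them ended its call (adjusted p = 0.915). SSBP1, which binds single-stranded mitochondrial DNA, had 0.19 (SE 0.05, adjusted p = 0.007, and adjusted p = 0.912 in the deposited signals). POLG, the catalytic subunit of the DNA polymerase, was lower at -0.4 (SE 0.08, adjusted p = 0.002, and adjusted p = 0.519 with probe sets averaged).

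Of 9 transcriptional regulators of nuclear genes for mitochondria, 4 were higher and 1 lower, against 16.6% and 17.3% of all tested genes. MYC rose from 358 ± 31.4 to 502 ± 43.9 (SD, n = 3; 0.48, SE 0.09, adjusted p = 0.002). The coactivator PPARGC1B, near background in controls, rose from 31.1 ± 5.92 to 62.1 ± 7.22 (SD, n = 3; 0.87, SE 0.2, adjusted p = 0.005). YY1, whose letters stand in many member promoters above, had 0.22 (SE 0.05, adjusted p = 0.003), but adjusted p = 0.819 in the deposited signals. Of its other probe sets 3 were higher, at 0.61, 0.39 and 0.59. GABPA and GABPB1 form 1 DNA-binding complex at ETS sites. They were named after their values were seen, with -0.32 (SE 0.09, adjusted p = 0.018) and 0.52 (SE 0.13, adjusted p = 0.009). Their other probe sets had 0.08 and -0.09 and did not pass. With probe sets averaged each call ended (adjusted p = 0.42 and 0.119). The GABPA call also ended after centring (adjusted p = 0.076) and without control replicate 2 or 3 or decoy replicate 1 (adjusted p from 0.053 to 0.063). That of GABPB1 ended without the trend (adjusted p = 0.06) or moderation (adjusted p = 0.128).

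Gene groups close in function gave other counts over the same arrays. Of 71 nuclear-encoded respiratory chain and ATP synthase genes, picked by symbol, 5 (7.04%) were higher and 24 (33.8%) lower, with a median of -0.08. Of 56 cytosolic ribosomal protein genes 6 (10.7%) were higher and 2 (3.57%) lower, with a median of 0.01. Over all tested genes the shares were 16.6% higher and 17.3% lower, with a median of -0.02. The difference between these lists and the mitochondrial ribosomal proteins was not tested.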

How the data were processed

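RNA from 6 samples was measured on arrays, 3 per group, with groups and replicate numbers taken from the titles. Per the labels' protocols, TRIzol-extracted RNA (0.25 µg) was turned into cRNA carrying biotin. The authors deposited linear signal intensity values for 54675 probe sets, and MAS5 is named in the submitters' processing notes. No source used here gives its version or scaling target. Precision is limited by having 3 arrays per group.

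The platform annotation names 1 gene for 41091 of them, several for 1801 and none for 11721, and 62 were controls; those with several or none named no gene. All 76 tested members matched RefSeq by Entrez identifier, and 68 had an entry in the promoter table.

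Because 1 array was brighter as deposited, signals were quantile-normalised (limma 3.58.1, R 4.3.3) and turned into log2(signal + 7). Genes whose mean signal lay below the 30th percentile (15.6) were dropped, leaving 13842. The groups were compared by limma (lmFit, then eBayes with a trend on signal; two-sided), and p-values were adjusted by Benjamini-Hochberg over all 13842 genes. The test was checked on simulated data in which 200 of 13842 genes were changed. It recovered 15.8% of changes of 1.25-fold, 46.2% of 1.5-fold and 69.2% of 2-fold, and 4.79% of its calls were false. Small differences were thus often missed there. Far more genes were called in the real data than were changed in the simulation, so these shares need not hold here. The prior had 7.66 degrees of freedom against 4 residual ones. Fold changes on this scale understate those of dim genes.

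The members and lists were chosen with earlier results of these data known, so counts and medians are given with no list test. Named were, per subunit, up to 6 higher and 6 lower members with the largest differences and the 2 with the highest signals, MRPS18A, MRPS18B, MRPS18C, MRPL12, MRPS30, and up to 3 genes per other list with the smallest p. Alternatives were other scalings, offsets, filters and probe set choices, no trend, no moderation, the replicate number as a block and each array left out. Same-numbered arrays did not deviate together (correlations 0.03, -0.03 and -0.02).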

Additional observations from a re-analysis of the deposited data

How the results depend on the processing

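Leaving the deposited signals as they were gave 1094 higher and 2561 lower among all genes, 11 and 3 among members, 6 and 2 among MRPL, 5 higher MRPS, and 2 higher of the assembly and translation list, with medians of -0.02 for MRPL and 0.07 for MRPS (gap -0.09). Centring gave 2 lower members, 1 lower MRPL and medians of 0.16 and 0.25 (gap -0.09). The mean of all probe sets gave 1462 higher and 1576 lower genes, 8 higher on the assembly and translation list, an MRPS median of 0.13 and a gap of -0.05. Without suffixed probe sets, where 42 members were tested, 12 were higher and 3 lower, 7 and 2 of them MRPL and 5 higher MRPS. Over all genes in that run 14.6% were higher and 14.2% lower. The MRPL median was 0.14 there and the gap -0.02. Without the trend 2 members were lower, 1 of them MRPL, and the assembly and translation list had 9 and 0. Over all genes 13% were then higher and 13.1% lower. Without moderation 1448 genes were higher and 1377 lower, 2 members were lower, 1 of them MRPL, and the same list had 9 and 0. Deposited signals without control replicate 3 gave 3 lower members, 2 of them MRPL.

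With 1 array left out, higher members numbered 21 to 28 and lower ones 3 to 6. Over all genes 13.5% to 15.5% were higher and 13.2% to 15.5% lower in these runs. Lower MRPL numbered 2 to 4 and lower MRPS 1 to 2, and the assembly and translation list had 9 to 13 higher and 1 to 2 lower. The MRPL median ranged from 0.03 to 0.11, the MRPS median from 0.15 to 0.2 and the gap from -0.14 to -0.07. The causes were not tested, except that fewer genes were tested without suffixed probe sets.

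Called genes whose sign turned with the mean of all probe sets were MRPL30 (0.02), MRPS31 (-0.13), MRPL44 (-0.06), MRPL47 (-0.15), GFM1 (-0.09) and POLRMT (-0.04), and without suffixed probe sets MRPL4 (-0.35), POLRMT (-0.89) and RCC1L (-0.26). Among named genes that had not passed, DAP3 turned to 0.01 and 0.14 under the same alternatives, PTCD3 to -0.01 in the deposited signals and MRPL51 to 0.01 without control replicate 3. Of the 27 higher members, 0 were called lower in any alternative, and 0 of the 5 lower ones were called higher. With the replicate number as a block, 24 members were higher and 4 lower, 14 and 3 of them MRPL, with 2218 and 2336 among all genes. Each replicate number has 1 array per group, so the block could change p-values but no log2 difference. Offsets and filters left member counts at 25 to 29 higher and 5 lower.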

Other observations

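Some members share a start region with a gene on the opposite strand. In RefSeq (GRCh38.p14), 17 protein-coding members had a tested gene starting within 1000 bases and running the other way. These neighbours were higher in 2 cases, lower in 4 and did not pass in 11. Over all tested genes 16.6% were higher and 17.3% lower. MRPL46 and MRPS11, which start beside each other, count as neighbours of one another. Beside MRPS18B, PPP1R10, a regulatory subunit of protein phosphatase 1, was higher too (0.4, adjusted p = 0.015, limma). Beside MRPL40, higher at 0.33, the histone chaperone gene HIRA was lower (-0.52, adjusted p = 0.02). PSMA2 beside MRPL32, ZNF189 beside MRPL50 and HELQ beside MRPS18C did not pass, at -0.05, 0.12 and 0.13. Beside members that did not pass, the condensin gene NCAPD2 next to MRPL51 was lower at -0.67 (adjusted p = 0.00028), and APBA3 next to MRPL54 was higher at 0.79 (adjusted p = 7e-05). Neither MRPL46 nor MRPS11 passed (0.08 and 0.11).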
